A study of Mus musculus with 2 samples.

Results

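The proteasome genes described here are the protein-coding genes of the mouse whose GENCODE symbol begins with Psma to Psmg and continues with a number. The rule found 50 genes among the 21474 protein-coding genes of the deposited tables, and it used no measured value. They comprise 8 alpha and 11 beta genes of the 20S core, 17 subunits of the 19S cap, 6 activator or inhibitor genes, 7 assembly chaperones and Psmc3ip. Psmc3ip shares the letters of the symbol but is a factor of meiotic recombination and no proteasome subunit. Polyadenylated RNA of whole lung from 1 female C57BL/6J mouse aged 10 weeks was sequenced in 2 libraries, which the labels number as technical replicates 1 and 2. The animal carried no allele and received no agent named in the labels, and replicate 2 was performed later, in 2015. Every pair of values below gives replicate 1 first, every SD is over n = 2 libraries and is technical, and no animal other than this one was measured.

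The libraries held 16104442 and 17110882 expected counts, which are the authors' estimates of reads per gene. Levels are given in TPM, an abundance that is corrected for transcript length so that genes of a library can be set side by side. Among the core subunits of replicate 1, TPM was closely related to GC content, as described below. Comparisons between genes of that library carry this limit. All 6 lung markers (Sftpc, Sftpb, Scgb1a1, Ager, Cldn5 and Pecam1) were found in both libraries, with Cldn5 at 0.43 TPM in replicate 1. By counts scaled as described below, all 6 were over 2-fold higher in replicate 2, beside 39.3% of all 14139 genes tested. The libraries thus stood far apart for the tissue's own genes too, and with 1 library on each side no difference between them has a replicate check or a p-value. Intervals below are exact 95% intervals of counting error only, and as the reads carry no molecular identifiers, copies of 1 molecule may be among them.

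The proteasome degrades proteins that carry ubiquitin chains. Its 20S core is a stack of rings in which the alpha subunits form the gated outer rings and the beta subunits the inner rings, and Psmb5, Psmb6 and Psmb7 carry the chymotrypsin-like, caspase-like and trypsin-like active sites. In cells of the immune system, and in other cells exposed to interferon gamma, newly assembled cores take up Psmb8 in place of Psmb5, Psmb9 in place of Psmb6 and Psmb10 in place of Psmb7, and this immunoproteasome supplies peptides for presentation on MHC class I molecules. The 19S cap binds, unfolds and feeds in the substrate, the Psme proteins form alternative caps, and dedicated chaperones build the particle. In whole lung the inducible genes can be transcribed by leukocytes as well as by stimulated epithelium and endothelium, and in bulk tissue fewer cells of a type and less RNA per cell cannot be told apart.

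The 6 catalytic subunits and a pair of cap subunits are shown by the middle 120 bases of their coding sequence, because base composition recurs in the results. Each is written 5′ to 3′ from the GENCODE M21 transcripts on GRCm38, with G and C in capitals, for the complete coding transcript of highest mean TPM. The pairs of constitutive and inducible subunits stand next to each other, and the last 2 are Psmc6 and Psmd12, cap subunits that were lower in replicate 2.
Psmb5: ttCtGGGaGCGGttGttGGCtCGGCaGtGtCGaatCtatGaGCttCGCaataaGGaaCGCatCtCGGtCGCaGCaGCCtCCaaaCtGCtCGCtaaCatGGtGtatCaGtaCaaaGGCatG
Psmb8: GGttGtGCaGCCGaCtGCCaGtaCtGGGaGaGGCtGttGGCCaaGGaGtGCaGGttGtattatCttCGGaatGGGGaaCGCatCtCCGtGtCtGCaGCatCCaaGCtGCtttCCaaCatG
Psmb6: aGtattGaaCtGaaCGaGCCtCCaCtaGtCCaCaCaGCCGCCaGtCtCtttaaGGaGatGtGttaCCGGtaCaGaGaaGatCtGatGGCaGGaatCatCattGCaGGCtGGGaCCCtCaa
Psmb9: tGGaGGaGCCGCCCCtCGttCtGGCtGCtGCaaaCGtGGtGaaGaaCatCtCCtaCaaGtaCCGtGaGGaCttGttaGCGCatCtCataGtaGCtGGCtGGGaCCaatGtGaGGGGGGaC
Psmb7: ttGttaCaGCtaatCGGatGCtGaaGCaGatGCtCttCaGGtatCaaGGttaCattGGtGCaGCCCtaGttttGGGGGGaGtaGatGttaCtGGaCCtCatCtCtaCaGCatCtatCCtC
Psmb10: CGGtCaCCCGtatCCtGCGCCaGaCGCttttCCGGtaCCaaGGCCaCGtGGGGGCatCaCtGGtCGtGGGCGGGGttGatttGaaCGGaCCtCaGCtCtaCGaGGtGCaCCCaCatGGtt
Psmc6: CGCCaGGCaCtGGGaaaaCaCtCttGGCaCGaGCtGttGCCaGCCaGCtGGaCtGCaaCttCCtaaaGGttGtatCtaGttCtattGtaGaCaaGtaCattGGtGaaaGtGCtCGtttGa
Psmd12: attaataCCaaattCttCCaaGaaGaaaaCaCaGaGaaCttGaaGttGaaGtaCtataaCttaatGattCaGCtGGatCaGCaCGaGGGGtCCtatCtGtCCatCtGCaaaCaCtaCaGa
On GRCm38 these stretches span chr14:54616564-54616683 for Psmb5 and chr17:34183617-34183736 for Psmb9, each within 1 exon on the minus strand. They span chr17:34199630-34200207 for Psmb8, chr11:70526424-70526661 for Psmb6, chr14:45337560-45340824 for Psmc6 and chr11:107491895-107492100 for Psmd12 on the plus strand. They span chr2:38633887-38640112 for Psmb7 and chr8:105936896-105937274 for Psmb10 on the minus strand, with an intron or introns inside all 6 of these spans. G and C made up 74 of the 120 bases in Psmb10, 68 in Psmb9, 66 in Psmb8, 63 in Psmb5, 60 in Psmb6, 58 in Psmc6, 56 in Psmb7 and 46 in Psmd12. Over the whole coding sequence the GC content was 59.8% in Psmb10, 57.8% in Psmb5, 57.7% in Psmb9, 57.0% in Psmb8 and in Psmb6, 48.6% in Psmb7, 46.4% in Psmd12 and 41.8% in Psmc6.

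Over all transcripts the summed TPM of the 50 genes was nearly the same in both libraries, at 4885 and 4903 (mean 4894 ± 12.7, SD), or 0.489% and 0.490% of all TPM. This held for that measure only. In expected counts the sums were 48290 and 78814, and by protein-coding transcripts alone they were 2991 and 4428 TPM. The genes that made up the sum over all transcripts were not the same in size. Psmb11, the beta subunit of the thymic cortex, had 0 counts in both libraries, which allows up to 3 counts, or 0.186 and 0.175 CPM. The other 49 genes had a mean TPM of at least 1 and were compared by the ratio of counts in replicate 2 over replicate 1, scaled by edgeR's TMM factors. Of these, 24 were over 2-fold higher in replicate 2, against 39.3% of all 14139 genes tested, and 7 were over 2-fold lower, against 28.2%. The remaining 18 lay within 2-fold. The members' shares were 49.0% higher and 14.3% lower, and their median log2 ratio was 0.97 beside 0.19 over all genes tested. By the ratio of TPM, 21 were over 2-fold higher (37.3% of all genes) and 10 over 2-fold lower (31.9%), with a median log2 ratio of 0.57 beside 0.01. Of the members beyond 2-fold, the higher ones made up 77.4% by TMM scaling, 84.8% by total counts and 67.7% by TPM, where over all genes they made up 58.2%, 65.4% and 53.9%.

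**Figure D1:**
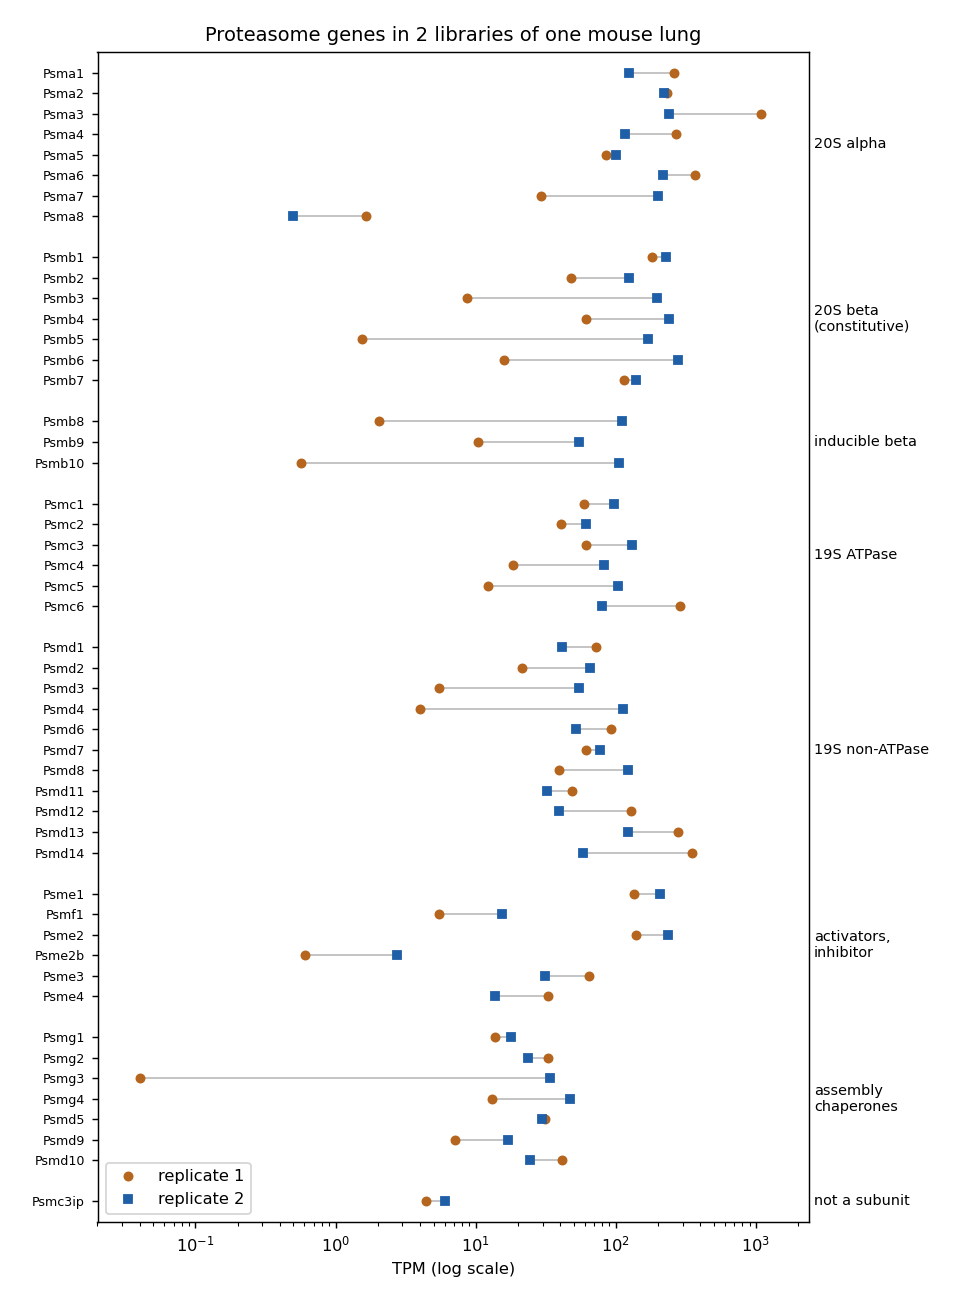
Level of each proteasome gene in TPM (horizontal log axis) in replicate 1 (circles) and replicate 2 (squares), joined by a line and grouped by role. Psmb11, at 0 in both libraries, is not drawn. Most alpha subunits sit further right in replicate 1, all beta subunits further right in replicate 2, and most squares of the core lie close together while the circles spread from 0.57 to 1092 TPM.

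The alpha subunits, which form the gate of the core, summed to 2335 and 1217 TPM (mean 1776 ± 790, SD). Of the 8 genes, 1 was over 2-fold higher in replicate 2 (39.3% of all genes tested), 3 were lower (28.2%) and 4 lay within 2-fold. Psma3 was the most abundant proteasome gene of replicate 1, at 1092 TPM against 238 TPM in replicate 2, and by scaled counts it was 2.89-fold lower in replicate 2 (interval 2.77 to 3.02). Psma4 had 269 and 116 TPM and was 2.13-fold lower (2.01 to 2.26) by scaled counts, but lay within 2-fold, at a log2 ratio of -0.83, by total counts. Psma7 went the other way, with 29.2 and 201 TPM, 7.90-fold higher in replicate 2 (6.89 to 9.09), and was the only alpha gene past 2-fold in that direction. Psma1 had 258 and 124 TPM, Psma6 had 369 and 218 TPM, Psma2 had 231 and 220.5 TPM, and Psma5 had 85.8 and 99.5 TPM. These 4 lay within 2-fold by scaled counts, although Psma1 was 2.08-fold lower by TPM. Psma8, which replaces Psma7 in the proteasome of male germ cells, had 28 and 12 counts, or 1.65 and 0.50 TPM, and was 2.97-fold lower (1.46 to 6.42). The germ cell markers Ddx4 and Dazl were at 0.64 and 0.32 TPM in replicate 1 and at 0.22 and 0.02 TPM in replicate 2. The animal was female, so the labels name no source of male germ cells.

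The constitutive beta subunits summed to 432 and 1378 TPM (mean 905 ± 668, SD). Of the 7 genes, 5 were over 2-fold higher in replicate 2 (39.3% of all genes tested), none was lower (28.2%) and 2 lay within 2-fold. The largest difference was in Psmb5, the chymotrypsin-like subunit, with 12 and 1854 counts, or 1.55 and 170.8 TPM (mean 86.2 ± 119.7, SD). Psmb3, a structural subunit of the inner rings, had 8.73 and 197 TPM and was 24.2-fold higher in replicate 2 (18.7 to 31.9). Psmb4, another structural subunit, had 61.7 and 241 TPM, 9.97-fold higher by scaled counts (8.76 to 11.4) and 3.91-fold by TPM. Psmb2 had 47.6 and 124 TPM and was 4.81-fold higher by scaled counts (4.16 to 5.58), and 2.61-fold by TPM. Psmb1, also structural, had 182 and 228 TPM and lay within 2-fold, as did Psmb7. Set against the alpha genes Psma1 to Psma7, at 2333 and 1217 TPM, the beta genes were lower in sum in replicate 1 and higher in replicate 2. An assembled core without inducible subunits holds each of these alpha and beta subunits in equal number.

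In a core without inducible subunits the 14 constitutive subunits (Psma1 to Psma7 and Psmb1 to Psmb7) enter in the same number, so their levels were set against each other. For Psmb5, Psmb6 and Psmb7 equal number fails where Psmb8, Psmb9 and Psmb10 have taken their place. The sum of the 14 was 2765 TPM in replicate 1 and 2595 TPM in replicate 2. In replicate 1 they ran from 1.55 TPM for Psmb5 to 1092 TPM for Psma3, a range of 704-fold, with an SD of 2.48 on the log2 scale. In replicate 2 they ran from 99.5 TPM for Psma5 to 276 TPM for Psmb6, a range of 2.77-fold, with an SD of 0.47. By protein-coding transcripts alone the range was 237-fold in replicate 1, from Psmb5 to Psma6, and 12.9-fold in replicate 2, where Psma3 was lowest at 19.97 TPM and only 8.39% of its TPM lay in protein-coding transcripts. Across the 14 genes the log2 TPM values of the libraries had a Pearson r of -0.05 and a Spearman rho of -0.03, given as a description. The 17 cap subunits showed the same contrast, with a range of 87.4-fold in replicate 1 and 4.03-fold in replicate 2 over all transcripts, and summed to 1583 and 1331 TPM.

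The inducible subunits Psmb8, Psmb9 and Psmb10 were all over 2-fold higher in replicate 2, by scaled counts, total counts and TPM. Of all genes tested, 39.3%, 42.4% and 37.3% were over 2-fold higher by these 3 measures. All 3 inducible genes had over 54% GC as a mean over annotated transcripts. Of all tested genes at 54% or more, 85.1% were higher by scaled counts. The inducible subunits summed to 13.02 and 272 TPM (mean 142 ± 183, SD). Psmb8 (ENSMUSG00000024338.10, chr17:34197721-34201454) had 35 and 1706 counts, or 2.05 and 111 TPM (mean 56.5 ± 77.0, SD), and was 38.3-fold higher in replicate 2 (27.4 to 55.1). Psmb9 (ENSMUSG00000096727.1, chr17:34181987-34187764) had 39 and 973 counts, or 10.4 and 54.9 TPM (mean 32.7 ± 31.5), and was 19.6-fold higher (14.2 to 27.7) by counts but 5.28-fold by TPM. Psmb10 (ENSMUSG00000031897.8, chr8:105935735-105938444) had 7 and 1817 counts, or 0.57 and 106 TPM (mean 53.3 ± 74.5), and was 204-fold higher (98.7 to 507). All 3 were thus read by 7 to 39 counts in replicate 1 and by 973 to 1817 in replicate 2. Psmb8 and Psmb9 flank Tap1 (chr17:34187553-34197225), which encodes a chain of the peptide transporter that receives proteasome products.

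The constitutive partners were not lower where the inducible genes were higher. Psmb5 (ENSMUSG00000022193.6, chr14:54614119-54618022) was 121-fold higher in replicate 2 (69.2 to 235), more than Psmb8, its replacement. Psmb6 (ENSMUSG00000018286.6, chr11:70525367-70527858) had 103 and 2655 counts, or 16.0 and 276 TPM (mean 146 ± 184), and was 20.2-fold higher (16.6 to 24.9), close to the ratio of Psmb9. Psmb7 (ENSMUSG00000026750.5, chr2:38588036-38644087) had 949 and 2127 counts, or 114 and 139.6 TPM (mean 127 ± 17.9), and was 1.76-fold higher (1.63 to 1.90), within 2-fold, while its replacement Psmb10 differed by 204-fold. By total counts Psmb7 passed 2-fold, at a log2 ratio of 1.08. Of the 3 pairs, that of Psmb7 and Psmb10 held the 2 most unlike ratios.

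In replicate 2 the order of levels was Psmb6, Psmb5, Psmb7, Psmb8, Psmb10 and Psmb9, and only Psmb8 (106 to 116 TPM) and Psmb10 (101.1 to 111 TPM) were neighbours whose counting intervals overlapped. In replicate 1 the order was Psmb7, Psmb6, Psmb9, Psmb8, Psmb5 and Psmb10. There the intervals of Psmb6 (13.1 to 19.4 TPM) and Psmb9 (7.40 to 14.2 TPM) overlapped. So did those of Psmb8 (1.43 to 2.85 TPM) and Psmb5 (0.80 to 2.71 TPM), and those of Psmb5 and Psmb10 (0.23 to 1.17 TPM). Over all transcripts each constitutive subunit stood above its inducible partner in both libraries, except Psmb5, which was below Psmb8 in replicate 1 by less than counting error. By protein-coding transcripts alone the order of Psmb6 and Psmb9 turned in replicate 1, with 4.43 TPM for Psmb6, whose forms with a retained intron held 8.49 and 2.55 TPM, and 10.3 TPM for Psmb9.

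Psmb8 made up 56.9% of the TPM of Psmb8 and Psmb5 in replicate 1 (interval 40.1% to 73.7%) and 39.4% in replicate 2 (37.8% to 41.0%), with a mean of 48.2% ± 12.4 (SD). Psmb9 made up 39.4% of the TPM of Psmb9 and Psmb6 in replicate 1 (30.5% to 48.7%) and 16.6% in replicate 2 (15.6% to 17.6%), with a mean of 28.0% ± 16.1. Psmb10 made up 0.496% of the TPM of Psmb10 and Psmb7 in replicate 1 (0.199% to 1.02%) and 43.1% in replicate 2 (41.6% to 44.7%), with a mean of 21.8% ± 30.2. GC content, as a mean over annotated transcripts, was 13.7 percentage points higher in Psmb10 than in Psmb7, and its part in these shares was not tested. By TPM the share was thus lower in replicate 2 for Psmb8 and Psmb9 and higher for Psmb10, although all 3 inducible genes were higher. For Psmb8 the intervals of the libraries overlapped. By protein-coding transcripts alone, a measure chosen after the data were seen, the shares were 48.8% and 39.0% for Psmb8, 70.0% and 16.1% for Psmb9 and 0.875% and 43.7% for Psmb10. For all 3 pairs together the inducible share was 8.98% and 31.7%. In counts, with no correction for length, Psmb8 made up 74.5% and 47.9% of its pair, and Psmb9 27.5% and 26.8%. The authors' length for Psmb9 was 514 bases in replicate 1 and 1306 in replicate 2, and the difference in its share arose in that term.

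**Figure D2:**
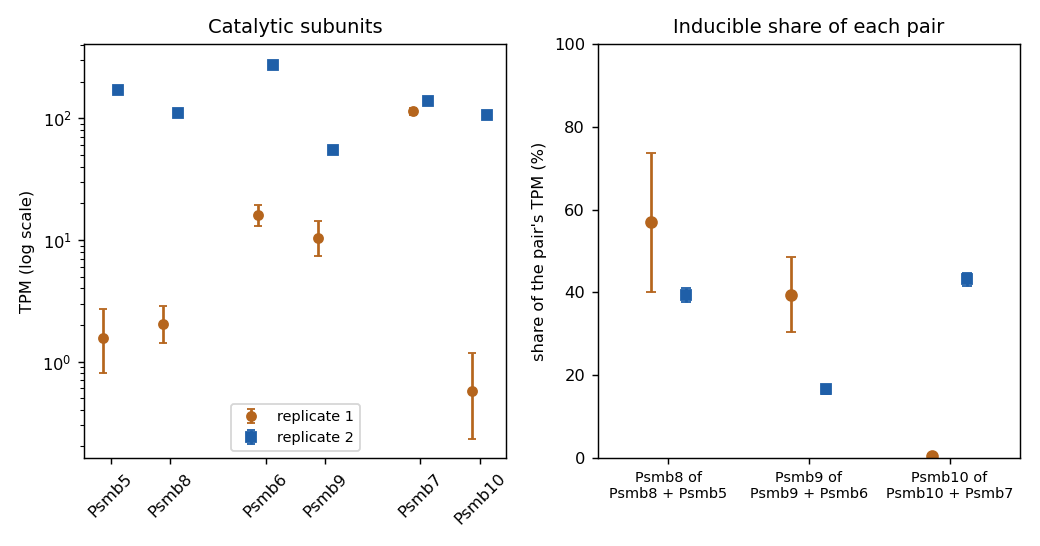
Left, level in TPM (log axis) of the 3 constitutive catalytic subunits, each beside its inducible replacement, in replicate 1 (circles) and replicate 2 (squares), with exact 95% intervals of counting error. Right, the inducible subunit's share of its pair in percent, with the same kind of interval. Psmb7 is alone in having nearly the same level in both libraries, at 114 and 139.6 TPM, and the share of Psmb10 beside it was 0.496% in replicate 1 and 43.1% in replicate 2.

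Leukocyte markers moved between the libraries as well. All 6 markers on the list (Ptprc, Cd52, Coro1a, Laptm5, Lyz2 and Cd74) were above 1 TPM in both libraries and none was at 0. They summed to 6030 and 13602 TPM, but Lyz2 alone made up 5716 and 11487 TPM of this. The sum thus mostly gives the level of 1 gene. Of the 6 markers, 5 were over 2-fold higher in replicate 2, beside 39.3% of all genes tested. Ptprc, the common leukocyte phosphatase CD45, had 107 and 30.9 TPM and was 3.38-fold lower, where 28.2% of all genes were over 2-fold lower. GC content, as a mean over annotated transcripts, was 41.2% for Ptprc and from 48.3% (Lyz2) to 58.1% (Coro1a) for the others. The part of leukocytes in the values of the inducible subunits was not tested.

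The 6 ATPases of the cap, which form the ring that unfolds the substrate, summed to 479 and 554 TPM (mean 516 ± 53.5, SD). Of these, 3 were over 2-fold higher in replicate 2 (39.3% of all genes tested), 1 was lower (28.2%) and 2 lay within 2-fold. Psmc3 had 173 and 2745 counts and was 12.5-fold higher in replicate 2 by counts (10.7 to 14.6), but its TPM of 61.2 and 131 differed by only 2.14-fold. Psmc5 had 12.3 and 103.3 TPM and was 9.25-fold higher (7.85 to 10.95). Psmc4 had 18.4 and 82.6 TPM and was 6.52-fold higher (5.59 to 7.63). Psmc6 was the only ATPase over 2-fold lower, with 287 and 79.8 TPM, 3.25-fold lower in replicate 2 (3.08 to 3.44) by scaled counts. That was the largest difference in this direction among the 49 genes by scaled counts, whereas by TPM Psmd14 (6.04-fold lower) and Psma3 (4.59-fold lower) exceeded the 3.59-fold of Psmc6. Psmc1 had 59.1 and 96.7 TPM and Psmc2 had 40.9 and 60.9 TPM, both within 2-fold, although Psmc1 passed it by total counts, at a log2 ratio of 1.11. The ATPase ring holds its 6 members in equal number, and their levels spanned 23.3-fold in replicate 1 and 2.15-fold in replicate 2.

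The other 11 cap subunits summed to 1104 and 777 TPM (mean 941 ± 231, SD). Of these, 5 were over 2-fold higher in replicate 2 (39.3% of all genes tested), 2 were lower (28.2%) and 4 lay within 2-fold. Psmd4, a ubiquitin receptor, had 4.02 and 112 TPM and was 30.0-fold higher (22.8 to 40.3). Psmd3, a scaffold subunit of the lid, had 5.49 and 54.6 TPM and was 32.5-fold higher (23.8 to 45.4). Psmd2, the large scaffold that docks ubiquitin shuttles, had 21.5 and 65.6 TPM, 3.43-fold higher, and Psmd8, a lid subunit, had 39.3 and 122 TPM, also 3.43-fold higher. On the other side stood Psmd14, the metalloprotease that removes ubiquitin chains, with 351 and 58.2 TPM and 2.67-fold lower by counts (2.49 to 2.86). Psmd12, a lid scaffold, had 128 and 39.1 TPM and was 2.96-fold lower (2.74 to 3.20). Psmd14 acts as a pair with Psmd7, which had 61.7 and 77.3 TPM and lay within 2-fold. Over all transcripts Psmd14 was 5.70 times Psmd7 in replicate 1 and 0.752 times in replicate 2. Transcripts annotated as protein-coding held only 24.6% of Psmd14 in replicate 1, and by these alone, at 86.3 and 53.3 TPM, it was 1.40 and 0.690 times Psmd7. Psmd1, Psmd6 and Psmd11 lay within 2-fold, between 32.5 and 92.2 TPM in either library. Psmd13, a lid subunit, was 2.86-fold higher by counts (2.61 to 3.13), with 614 and 2236, and 2.28-fold lower by TPM, with 279.5 and 122.6, the only member past 2-fold in opposite directions on the 2 scales.

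Among the activators, Psme1 and Psme2, the interferon-inducible subunits of the 11S cap, had similar levels in replicate 2, and in replicate 1 only when all transcripts were summed. Psme1 had 135 and 206 TPM and Psme2 had 140.1 and 237 TPM, so that the pair differed by 1.04-fold in replicate 1 and 1.15-fold in replicate 2. In replicate 1 a transcript of Psme2 of 511 bases with a retained intron held 103.3 of that TPM. By protein-coding transcripts alone Psme1 had 74.7 and 195.2 TPM and Psme2 had 18.2 and 215 TPM, a 4.10-fold gap in replicate 1. By scaled counts Psme1 was 2.52-fold higher in replicate 2 (2.34 to 2.71) and Psme2 3.66-fold (3.35 to 4.02), whereas by TPM both lay within 2-fold. Their genes are neighbours, at chr14:55578123-55581529 and chr14:55587441-55591113. Psme2b, a single-exon copy of Psme2 whose reads cannot be told apart with certainty from those of its parent, had 4.52 and 28.3 counts. Psme3, which forms a nuclear cap, had 64.8 and 31.4 TPM and lay within 2-fold by counts. Psme4, the single-chain activator PA200, had 32.9 and 13.7 TPM and was 2.22-fold lower (2.07 to 2.39), but within 2-fold by total counts, at a log2 ratio of -0.89. Psmf1, named for its inhibition of the core in vitro, had 5.51 and 15.3 TPM and was 2.22-fold higher (1.87 to 2.63).

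The 7 assembly chaperones summed to 139 and 193 TPM (mean 166 ± 38.4, SD), well below the core and the cap. Psmg3, which helps to build the alpha ring together with Psmg4, had 1 and 352 counts, or 0.04 and 33.7 TPM, a ratio of 276 with an interval from 49.3 to 10941. Its partner Psmg4 had 13.1 and 47.1 TPM and was 3.58-fold higher (2.67 to 4.89). The other pair of alpha-ring chaperones, Psmg1 and Psmg2, lay within 2-fold, with 13.7 and 17.9 TPM and with 32.8 and 23.5 TPM, although Psmg1 passed 2-fold by total counts, at a log2 ratio of 1.09. Of the chaperones of the ATPase ring, Psmd9 had 7.14 and 16.98 TPM and was 2.63-fold higher (2.24 to 3.11). The other two, Psmd5 with 31.4 and 29.8 TPM and Psmd10 with 41.0 and 24.6 TPM, lay within 2-fold. Of the 7 chaperones, 3 were over 2-fold higher in replicate 2 (39.3% of all genes tested) and none was over 2-fold lower (28.2%).

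The log2 ratio of the proteasome genes rose with GC content, a relation they shared with all genes. Over the 49 genes Pearson's r between GC content (the mean over a gene's annotated transcripts) and the log2 ratio was 0.82 and Spearman's rho 0.86. Over 14067 tested genes with a sequence the values were 0.77 and 0.82. These are descriptions across genes, which share both libraries. Among the 13 members under 46% GC, none was over 2-fold higher and 5 were lower, and among all genes of that class 0.837% were higher and 76.3% lower. Among the 11 members at 46% to 50% GC, 1 was higher (Psme2b) and 2 were lower (Psma4 and Psmd12), where 10.7% and 30.1% of all genes were. Among the 14 at 50% to 54% GC, 13 were higher and none lower, where 50.4% of all genes in the class were higher and 8.29% lower. Among the 11 members at 54% or more, 10 were higher and none lower, where 85.1% of all genes were higher and 1.75% lower. Psmd7 was the exception in that class, at 55.6% GC and a log2 ratio of 0.47, but its main transcript had 49.7% GC.

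Subtracting a smooth trend of the log2 ratio on GC content, fitted over all tested genes, reduced the SD of the members' log2 ratios from 2.43 to 1.38, and that of all genes from 2.74 to 1.71. After this step 41 of the 49 members lay above the trend, as did 49.2% of all genes, and the members' median log2 ratio was 0.96 beside -0.02 for all genes. The number over 2-fold lower went from 7 to 1 (Psmd7). The number over 2-fold higher was 24 before and after, but the genes were not the same. Psmc4, Psmd8, Psmd9, Psme1, Psmf1 and Psmg4 dropped out. Psma2, Psmb1, Psmb7, Psmc2, Psmg1 and Psme4 came in, and Psme4 had been over 2-fold lower before. With the trend on the GC content of the main transcript the counts were 14 higher and 3 lower of 48, and the median was 0.60. Above that trend lay 35 members. The shares of all genes beyond 2-fold after these 2 subtractions are not given here, so the members' counts after them have no background beside them. The 3 inducible subunits lay 2.97, 2.09 and 3.28 above the first trend on the log2 scale (Psmb8, Psmb9 and Psmb10), and their partners Psmb5, Psmb6 and Psmb7 lay 3.20, 2.96 and 1.98 above it. Above the main-transcript trend they lay 1.00, 1.34 and 3.92 (Psmb8, Psmb9 and Psmb10) and 3.16, 1.10 and 0.89 (Psmb5, Psmb6 and Psmb7), so that Psmb8 and Psmb7 came within 2-fold. GC content as a mean over annotated transcripts differed little within the first pairs, at 54.4% for Psmb8 against 57.1% for Psmb5 and 54.3% for Psmb9 against 52.6% for Psmb6. In the last pair it differed by 13.7 percentage points, with 58.4% for Psmb10 against 44.7% for Psmb7. The gap was smaller between their main transcripts, at 56.5% for Psmb10 and 48.7% for Psmb7.

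**Figure D3:**
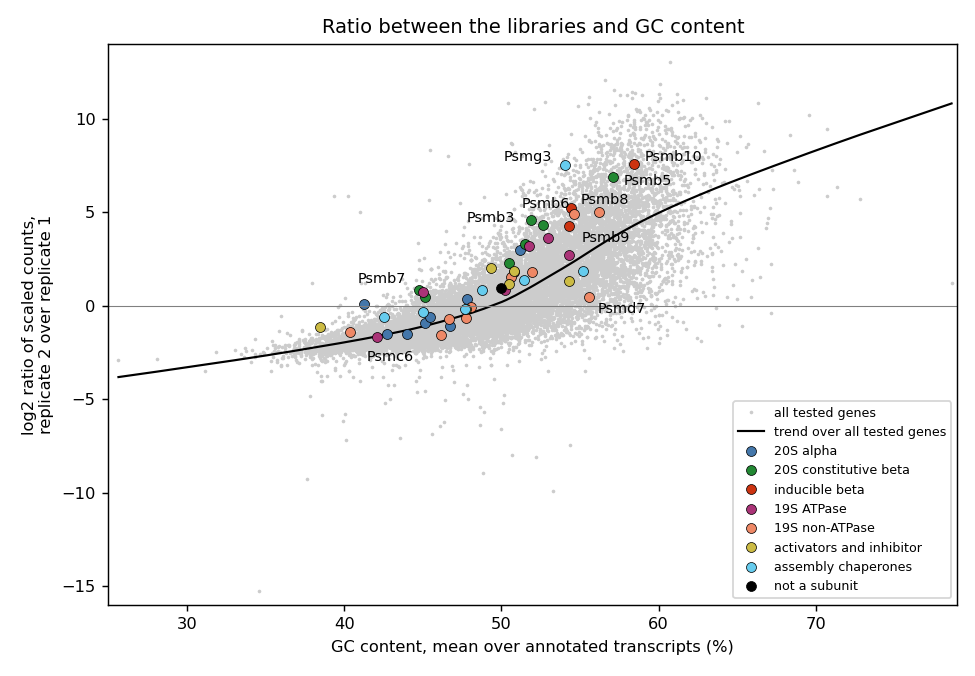
Log2 ratio of scaled counts of replicate 2 over replicate 1 (vertical axis) against GC content in percent (horizontal axis) for 14067 tested genes (grey), with their smooth trend (line) and the 49 proteasome genes coloured by role. The proteasome genes climb from Psmc6, the lowest, at the left to Psmb10 at the upper right, 41 of them lie above the line, and Psmb7 lies far to the left of the other catalytic subunits.

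The spread among the core subunits of replicate 1 had the same relation. Across the 14 constitutive core genes GC content and log2 TPM had an r of -0.91 and a rho of -0.83 in replicate 1, and an r of 0.05 and a rho of 0.02 in replicate 2. By protein-coding transcripts alone r was -0.89 and 0.35. In replicate 1 the GC-poor Psma3 (42.7%) stood at the top and the GC-rich Psmb5 (57.1%) at the bottom. Whether GC content itself produced this order was not tested.

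The transcripts assigned to these genes differed between the libraries too. In 16 of the 49 genes (32.7%, beside 24.3% of 13594 tested genes with a level in both libraries) the transcript with the highest level was not the same, and in 13 of the 16 the one that led in replicate 1 was shorter, as it was in 68.8% of the 3306 such genes among all. Coding status was read from GENCODE M21, and transcripts absent from it were not counted as coding. Among these was a transcript of Psmd13 of 123 bases, with 186.9 and 17.67 TPM. Transcripts that M21 calls protein-coding held 61.2% of the members' TPM in replicate 1 and 90.3% in replicate 2, or 2991 and 4428 TPM. They held under 50% of the gene's TPM in 13 genes in replicate 1 and in 3 in replicate 2 (Psma3, Psmd13 and Psmc3ip).

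In Psmc3 a processed transcript of 403 bases held 89.5% of the gene's abundance in replicate 1 and 1.36% in replicate 2, where the coding transcript of 1636 bases held 85.3%. In Psma3 a transcript of 562 bases annotated for nonsense-mediated decay held 55.9% and 0.46%. In Psmb9 a coding transcript of 433 bases held 92.3% and 2.82%, and the one of 1351 bases held 7.06% and 86.2%. The shorter forms led in replicate 1 in each of these. In Psmb8 the order was the reverse, and a transcript of 1628 bases held 72.0% and 40.3% while one of 815 bases held 0% and 58.3%. Psmb7 kept the same leading transcript, but one with a retained intron held 43.5% in replicate 1 and 2.08% in replicate 2. In Psmd13 a transcript of 123 bases received 3.71 of the 614 counts in replicate 1 and was assigned 186.9 TPM, or 66.9% of the gene. Without that transcript Psmd13 had 92.6 and 105 TPM, so that its reversed direction in TPM rested on those few counts. Of the catalytic genes Psmb5 and Psmb10 have 1 transcript each in the deposited tables, and their counts and TPM differed alike.

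**Figure D4:**
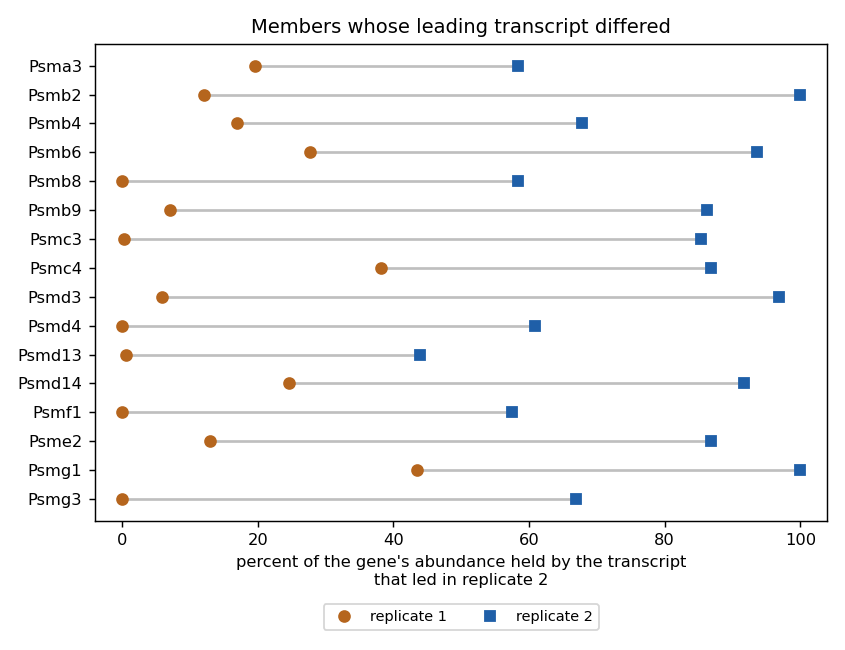
Percent of a gene's abundance (horizontal axis) held in replicate 1 (circles) and replicate 2 (squares) by the transcript that led in replicate 2, for the 16 proteasome genes whose leading transcript differed. The circles lie between 0 and 43.5% and the squares between 43.9% and 100%.

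Genes of the proteasome system that carry other symbols were compared in the same way, and 18 of them were found. Of these, 5 were over 2-fold higher in replicate 2, beside 39.3% of all genes tested, and 10 were lower, beside 28.2%. The remaining 3 lay within 2-fold, and the 18 genes together summed to 1274 and 886 TPM. The higher genes included Adrm1, Nfe2l1, Pomp and Ubqln4. Adrm1, a ubiquitin receptor of the cap, had 10.9 and 59.6 TPM and was 11.7-fold higher (9.34 to 14.8). Nfe2l1, the transcription factor that drives proteasome genes, had 23.4 and 90.4 TPM and was 4.44-fold higher. Pomp, the chaperone that completes the core, had 108.7 and 277 TPM and was 2.79-fold higher. The lower genes included both deubiquitinases that bind the cap, Uchl5 with 77.7 and 14.03 TPM (4.58-fold lower) and Usp14 with 109 and 23.4 TPM (3.84-fold lower). Rad23b, a ubiquitin shuttle, was 2.94-fold lower, with 102.7 and 37.3 TPM. Akirin2, Zfand5, Txnl1, Ubqln1, Ngly1, Ubqln2 and Ecpas were also over 2-fold lower. Sem1, the smallest cap subunit, had 81.5 and 99.2 TPM and lay within 2-fold.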

How the data were processed

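Polyadenylated RNA was sequenced in 2 technical libraries of 1 lung. Per the deposited file descriptions the authors' tables use assembly mm10 and annotation M4, and the sources used here do not give the aligner or quantifier. Per the file headers, the authors deposited the expected count, an estimate of reads per gene or transcript that need not be whole, and beside it TPM, the percent of a gene held by each transcript and posterior mean values. Symbols, positions, sequences and the coding status of transcripts came from GENCODE M21, whose assembly GRCm38 is that of mm10. Of 43346 gene identifiers, 42462 matched.

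Expected counts were rounded and scaled by TMM (edgeR 4.0.16, R 4.3.3, factors 0.913 and 1.10). Log2 ratios used a prior of 0.5 counts, and folds and their exact Clopper-Pearson intervals at 95% used none. A gene was tested if its TPM averaged 1 or more, and called means over 2-fold. The TPM intervals are exact Poisson intervals. The GC trend was fitted by lowess (span 0.3). The ratio step was run on simulated counts in which most genes were unchanged, and the trend step on simulated ratios with a known trend. The libraries here differed in far more genes, so those runs do not show how well the scaling works on them. Counts lay within 0.005 of a whole number in both libraries for 40 of the 50 members. Python 3.11.15, pandas 2.3.3, scipy 1.17.1 and statsmodels 0.14.6 were used. Every member could be named, and from the other lists those among the 4 of highest mean TPM, over 2-fold apart, or under 1 TPM in both libraries. Some genes of these lists are not reported here by name. The members and lists were chosen with earlier results of these data known. The alternatives tried are given in the closing section.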

Additional observations from a re-analysis of the deposited data

How the results depend on the processing

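The median log2 ratio of the members was 1.23 when scaled by total counts, 0.57 by the ratio of TPM and 0.60 after subtracting the trend on the GC content of main transcripts. That subtraction also left 14 members higher, 3 lower and 31 within 2-fold, of 48 with a main-transcript sequence, and the trend on annotated transcripts left 1 lower. The share of Psmb8 in its pair was 61.2% in counts without length correction, where TPM gave 48.2%. With either library alone the share of Psmb8 ranged from 39.4% to 56.9%, that of Psmb9 from 16.6% to 39.4%, and that of Psmb10 from 0.496% to 43.1%, and the summed TPM of the inducible subunits from 13.02 to 272. With 2 libraries these values lie at a fixed distance from their mean in SDs, so the SD is no measure of their stability. By protein-coding transcripts alone, an alternative added after seeing the data, the mean share was 43.9% for Psmb8, 43.1% for Psmb9 (28.0% over all transcripts) and 22.3% for Psmb10. No alternative in filter, posterior mean or value at 0 moved a count by over 1.5 times. Depth limits Psmb10, Psmb5, Psmg3 and Psme2b in replicate 1, each read by 12 counts or fewer. No paired analysis was possible because both libraries belong to 1 group.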

Other observations

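Genes of interferon signalling and of peptide loading onto MHC class I molecules act beside the immunoproteasome. Of 11 such genes, 5 were over 2-fold higher in replicate 2, beside 39.3% of all genes tested, 2 were lower, beside 28.2%, and 4 lay within 2-fold, shares near those of all genes. Tap2 and Tap1, the chains of the peptide transporter and neighbours of Psmb8 and Psmb9, had 0.49 and 44.4 TPM and 3.61 and 20.01 TPM. By scaled counts Tap2 had a ratio of 470 with an interval from 160.6 to 2282, from 3 and 1797 counts, and Tap1 was 6.32-fold higher (5.15 to 7.81). Irf1, a transcription factor induced by interferon, had 6.16 and 63.3 TPM and was 17.3-fold higher. B2m, the light chain of class I molecules, had 6439 and 1921 TPM and was 3.05-fold lower, and Erap1, which trims peptides, had 55.5 and 15.9 TPM and was 3.16-fold lower. GC content was 58.0% for Tap2, 56.0% for Tap1 and 55.0% for Irf1, and 41.2% for B2m and 42.5% for Erap1, and its part in these ratios was not tested.

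Foxn1, the defining factor of thymic epithelium, had 0 counts in both libraries, as did Psmb11. Prss16, a protease of the same cells, had 5 and 2 counts.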
